A study of Mus musculus with 10 samples.

Results

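The genes described here are 9 receptors, receptor subunits and bridging proteins by which phagocytes take up dying cells: Mertk, Axl, Tyro3, Gas6, Pros1, Mfge8, Itgav, Itgb5 and Lrp1. They were chosen by name, and each matched a single row among the 34745 genes of the deposited table. Messenger RNA was measured in peritoneal lavage cells, the leukocytes and shed lining cells rinsed from the abdominal cavity, of mice with sepsis after cecal ligation and puncture (CLP), in which the cecum is tied off and pierced so that gut bacteria leak out. The series contrasts mice given amlexanox, an inhibitor of the kinases TBK1 and IKK-epsilon, with mice given vehicle. The labels name 5 libraries AX and 5 NC, read here as amlexanox and vehicle although neither abbreviation is spelled out. All animals of both groups had CLP, and no library from mice without sepsis was analysed here. The sources used here do not give the strain, sex, age, dose or time of lavage.

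Clearance of dying cells, or efferocytosis, starts with phosphatidylserine that appears on the outer face of a dying cell. Bridging proteins hold this lipid to a receptor: Gas6 and protein S (Pros1) link it to the TAM receptor tyrosine kinases Tyro3, Axl and Mer (Mertk), and MFG-E8 (Mfge8) links it to the integrin made of alpha v (Itgav) and beta 5 (Itgb5). LRP1 is a large endocytic receptor that recognises calreticulin on dying cells. Mertk is a known receptor of resident macrophages, whereas Axl is also made by mesothelial and stromal cells and is induced in inflammation. Neutrophils are short-lived, and macrophages clear them by this route once they die in an inflamed cavity.

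Library totals ran from 10221170 to 13806885 counts (exact two-sided permutation p = 0.587 between the groups, n = 5 each). Levels below are in CPM, the usual unit for counts scaled to the library total, with group means ± SD. Neutrophil markers gave the largest summed level, at 7628 to 21093 CPM per library, and the 12 macrophage markers summed to 1133 to 2731 CPM. Endothelial markers summed to 1.33 to 6.46 CPM, and Emcn, a defining endothelial gene, had no count in any library. The libraries AX 6 and NC 1 stood apart. In them the 14 markers of mesothelium, the lining of the peritoneum, summed to 2395 and 1249 CPM against 131.6 to 402 CPM in the other 8 libraries. Among them Msln, the mesothelin gene, reached 748.9 CPM in AX 6 and 233.6 in NC 1. The 12 stromal markers summed to 2985 and 1681 CPM against 279.4 to 906.9 CPM elsewhere, and Dcn, the decorin gene of fibroblasts, reached 2284 and 1035 CPM. Macrophage markers were low in AX 6 (1198 CPM), lowest in AX 8 (1133 CPM), and stood at 1459 CPM in NC 1. In lavage RNA, fewer cells of a type and less RNA per cell cannot be told apart.

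No member differed between AX and NC beyond the spread of the libraries. Of the 9 members, 8 had enough counts to be tested, all but Tyro3, and 0 of 8 passed an adjusted p of 0.05 in edgeR's quasi-likelihood test, against 0% of the 12264 genes tested. At an unadjusted p under 0.05, 0 of 8 members passed, against 0.921% (113 genes) of all those tested. The groups overlapped in every tested member, while they did not overlap in 12 genes, or 0.0978%. Fitted values were higher in AX for 7 members and lower for 1, and the median of their log2 fold changes was 0.32. Without AX 6 there were 5 higher and 3 lower (Axl, Mfge8 and Itgav), with a median of 0.19. Without AX 6 and NC 1 together there were 7 higher and 1 lower (Mfge8), with a median of 0.32. The mesothelial and stromal markers were also higher in AX, in 13 of 13 and 12 of 12 tested genes, with medians of 1.03 and 0.55. These medians were -0.11 and -0.056 without AX 6, and 0.30 and 0.46 without AX 6 and NC 1 together. The part of these markers in the members' values was not tested. Over all genes tested, 6574 were higher and 5690 lower, with a median of 0.02. The smallest p among members was that of Gas6, 0.0728, with an adjusted p of 1.0 in edgeR's quasi-likelihood test after Benjamini-Hochberg adjustment. DESeq2 called 0 members, with 1 at an unadjusted p under 0.05, and limma-voom called 0, with 0. Over all genes both called 0, with 193 and 132 at an unadjusted p under 0.05.

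**Figure D1:**
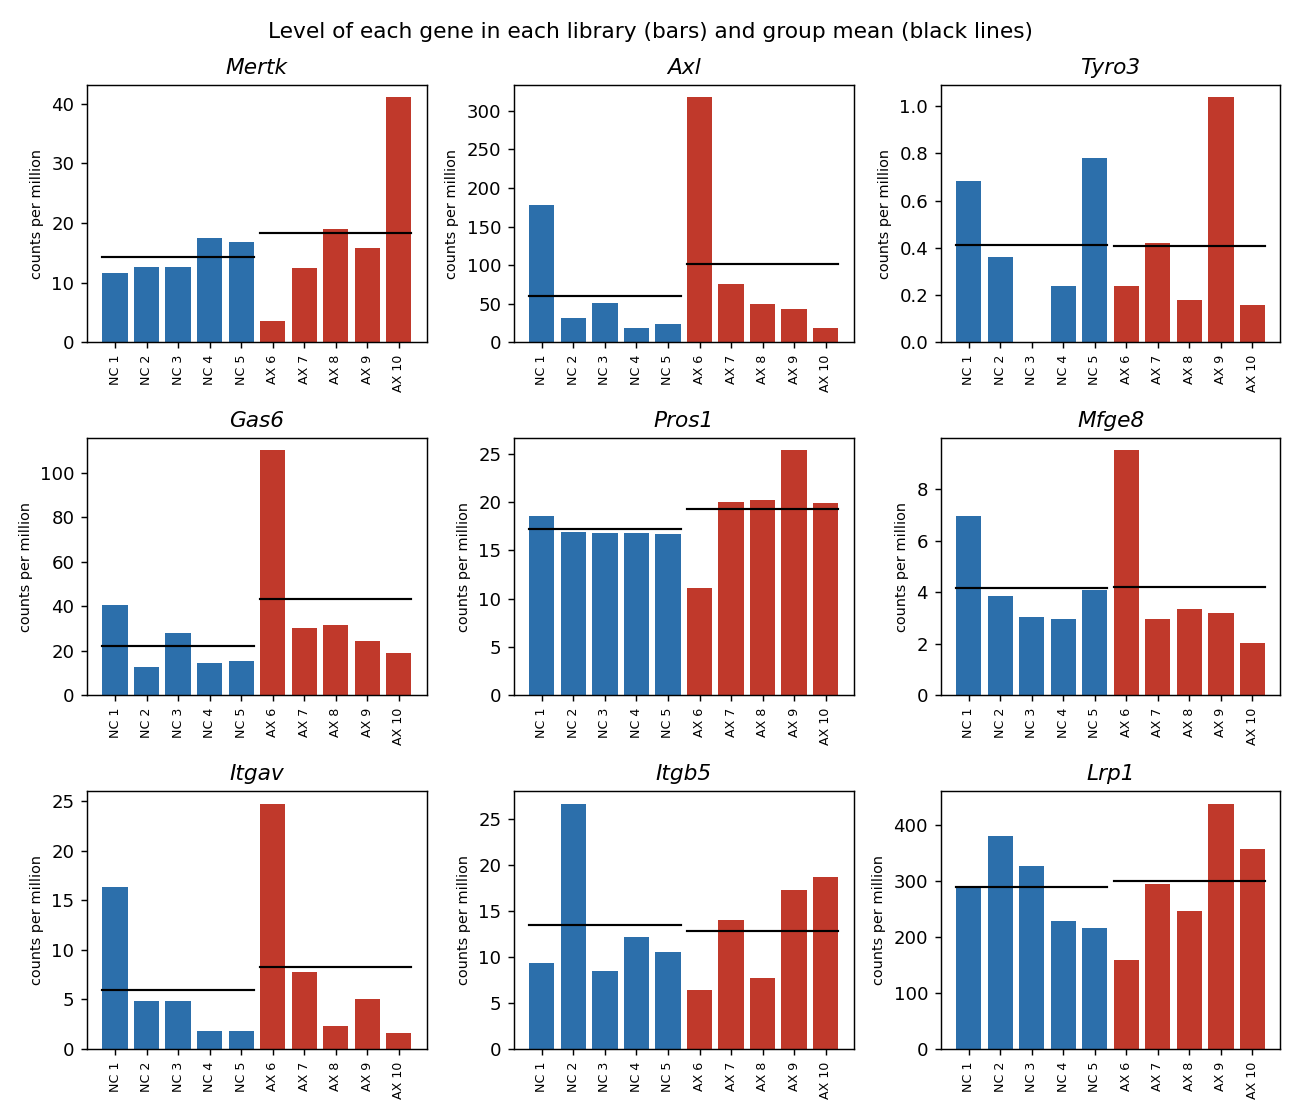
Bars give the CPM of each of the 9 genes in each library, NC in blue and AX in red, and black lines give the group means. Axl, Gas6, Itgav and Mfge8 were highest in AX 6 and next highest in NC 1, whereas Mertk was lowest in AX 6 and highest in AX 10.

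The levels per length set Lrp1 and Gas6 at the top and Tyro3 at the bottom. The authors' FPKM values (counts scaled for gene length and library total) had medians over 10 libraries of 14.0 for Lrp1, 10.1 for Gas6, 5.43 for Axl and 3.87 for Pros1. They were 2.46 for Itgb5, 2.33 for Mertk, 0.408 for Mfge8, 0.348 for Itgav and 0.0326 for Tyro3. Several neighbours in this order were not separated by the spread between libraries. Axl exceeded Pros1 in 5 of 10 libraries, Itgb5 exceeded Mertk in 5 of 10, and Lrp1 exceeded Gas6 and Mfge8 exceeded Itgav in 7 of 10 each. Gas6 exceeded Axl, Pros1 exceeded Itgb5 and Mertk exceeded Mfge8 in 9 of 10 libraries, and Itgav exceeded Tyro3 in 10 of 10. The gene lengths that these values carry, 13801 bases for Itgav and 8002 for Mfge8, enter the order directly.

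Axl, the TAM receptor that binds Gas6, was the most variable member. Its levels were 317.8 CPM in AX 6, 75.2 in AX 7, 49.4 in AX 8, 43.4 in AX 9 and 19.02 in AX 10. In the NC libraries they were 177.7 CPM in NC 1, 31.4 in NC 2, 50.95 in NC 3, 18.2 in NC 4 and 23.2 in NC 5. Both groups thus held 1 library far above the rest, and the other values interleaved. The mean was 100.96 ± 122.8 CPM in AX and 60.3 ± 66.8 CPM in NC (SD, n = 5 each). The log2 fold change was 0.92 ± 0.81 (SE), or 1.89-fold, and its 95% interval as a fold ran from 0.546 to 6.55. It was -0.27 without AX 6 and 1.76 without NC 1, the latter with an unadjusted p of 0.0473 and an adjusted p of 1.0 in edgeR's quasi-likelihood test. Leaving out both AX 6 and NC 1, the log2 fold change was 0.57, with an unadjusted p of 0.229 in the same test. The high libraries were those with the most mesothelial and stromal marker RNA, whose part in the result was not tested. Axl (ENSMUSG00000002602) lies on chromosome 7 from 25757273 to 25788705 of mm10, on the minus strand.

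Mertk, the Mer receptor, showed a different distribution. Its levels were 3.56 CPM in AX 6, 12.5 in AX 7, 19.04 in AX 8, 15.8 in AX 9 and 41.1 in AX 10. The NC libraries lay close together, at 11.6, 12.7, 12.7, 17.4 and 16.8 CPM in NC 1 to NC 5. The lowest and the highest value of all 10 libraries were therefore both in AX, resting on 45 counts in AX 6 and 525 in AX 10. The mean was 18.4 ± 13.9 CPM in AX and 14.3 ± 2.67 CPM in NC (SD, n = 5 each). The log2 fold change was 0.42 ± 0.49 (SE), with a 95% interval from -0.67 to 1.51, and it was -0.13 without AX 10. AX 10 had the lowest mesothelial marker sum, 131.6 CPM, and a macrophage marker sum of 2057 CPM, within the range of the other libraries. The share of counts from mitochondrial genes was 20.1% in AX 10 and 18.6% in AX 8, the libraries with the most Mertk, and 4.47 to 15.7% in the other 8. The part of these values in the result was not tested. Mertk (ENSMUSG00000014361) lies on chromosome 2 from 128698956 to 128802894, on the plus strand.

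The balance of these TAM receptors differed widely between libraries. The FPKM ratio of Axl to Mertk was 63.8 in AX 6, 4.31 in AX 7, 1.85 in AX 8, 1.97 in AX 9 and 0.331 in AX 10. In NC it was 10.9, 1.77, 2.87, 0.744 and 0.987 in NC 1 to NC 5. Axl thus exceeded Mertk per length in 7 libraries and lay below it in 3, of which AX 10 was in AX and NC 4 and NC 5 in NC. Tyro3, the TAM receptor best known from the nervous system, was near the detection limit. It had 0 to 9 counts in the NC libraries and 2 to 14 in AX, that is 0.414 ± 0.321 CPM in NC and 0.407 ± 0.368 CPM in AX (SD, n = 5 each). The absence of counts in NC 3 allows a level of up to 0.254 CPM, taking 3 counts as the limit. Tyro3 (ENSMUSG00000027298) lies on chromosome 2 from 119797733 to 119818104. With a filter of only 1 count all 9 members were tested, and 0 had an unadjusted p under 0.05 in edgeR's quasi-likelihood test. Differences in Tyro3 could be missed at this depth.

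**Figure D2:**
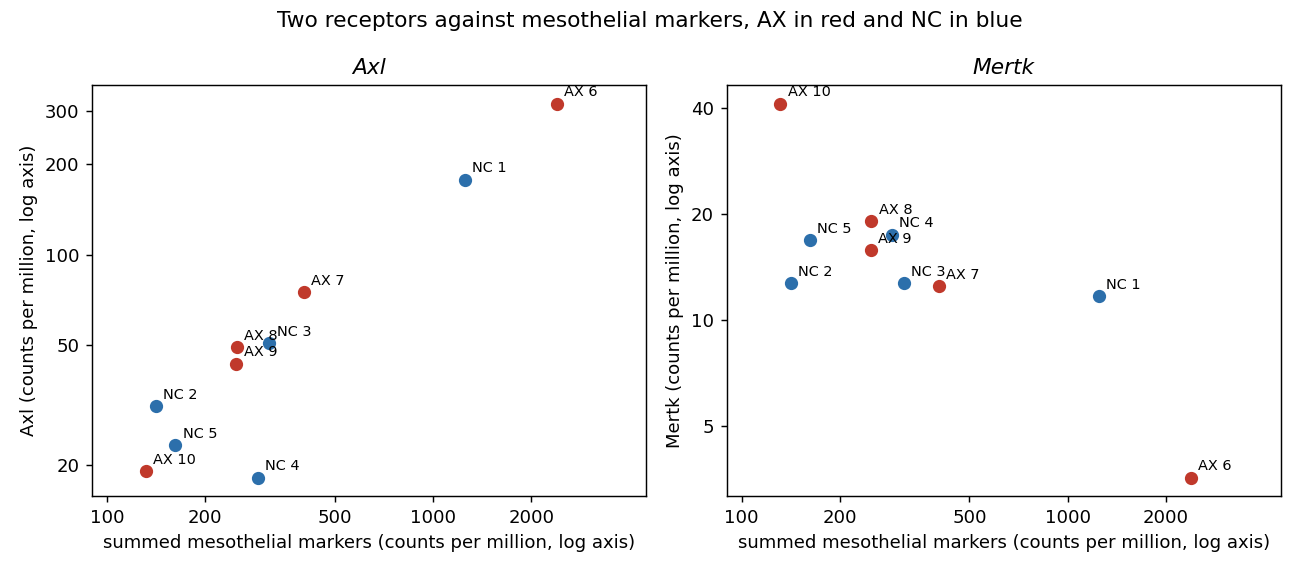
Each point is a library, AX in red and NC in blue, placed by its summed level of 14 mesothelial markers (x, CPM, log axis) and its level of Axl or Mertk (y, CPM, log axis). AX 6 and NC 1 lie at the upper right for Axl, at 317.8 and 177.7 CPM, and AX 6 lies at the lower right for Mertk, at 3.56 CPM.

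The stretches of DNA just before the start sites of Axl, Gas6 and Mertk are shown because Axl and Gas6 varied together over the libraries while Mertk varied in the opposite direction to Axl. Both relations were weaker without AX 6, as given below. The stretches are the 250 bases upstream of the RefSeq start (GRCm38.p6, the mm10 assembly), written 5′ to 3′ on the strand of the gene. That orientation was read from the table they come from: the last 30 bases of its windows were found as written in transcripts of the same gene for 8887 of 12674 windows of plus-strand genes and 8780 of 12500 of minus-strand genes, and as the reverse complement for 0 and 1. The windows of that table run on past the RefSeq start, beyond the bases shown. GENCODE starts these 3 genes further downstream, and the last 30 bases of their windows were not found in transcripts. Inside the GENCODE gene models, 22 bases of the Axl window, 9 of Mertk and 5 of Gas6 equal the start of a transcript. Those bases are not part of the stretches shown. Capitals mark matches, on either strand, to the motifs searched. The regions are chr7:25788734-25788983 (minus strand), chr8:13494536-13494785 (minus strand) and chr2:128698665-128698914 (plus strand).
Axl: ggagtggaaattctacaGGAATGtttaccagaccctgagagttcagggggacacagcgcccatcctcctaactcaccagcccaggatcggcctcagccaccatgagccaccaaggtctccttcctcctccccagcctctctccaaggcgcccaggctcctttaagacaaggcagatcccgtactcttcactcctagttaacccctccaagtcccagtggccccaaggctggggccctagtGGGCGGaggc
Gas6: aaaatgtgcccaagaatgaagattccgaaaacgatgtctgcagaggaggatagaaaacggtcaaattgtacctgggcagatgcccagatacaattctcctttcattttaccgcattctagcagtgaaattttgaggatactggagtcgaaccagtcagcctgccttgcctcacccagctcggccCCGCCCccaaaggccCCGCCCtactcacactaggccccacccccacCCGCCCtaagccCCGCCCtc
Mertk: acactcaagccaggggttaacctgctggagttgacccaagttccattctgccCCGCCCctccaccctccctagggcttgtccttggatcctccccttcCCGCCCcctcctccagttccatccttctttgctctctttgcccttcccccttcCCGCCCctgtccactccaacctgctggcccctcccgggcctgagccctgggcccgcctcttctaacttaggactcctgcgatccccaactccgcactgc
The motifs were the SP1 box GGGCGG, the TEAD site GGAATG, the AP-1 site TGANTCA, the TATA box TATAAA and the DR4 element of liver X receptors, 2 copies of AGGTCA spaced by 4 bases. The Axl stretch held 1 SP1 box near its 3′ end and 1 TEAD site near its 5′ end, the Gas6 stretch 4 SP1 boxes and the Mertk stretch 3 SP1 boxes, all as the reverse complement in the last 2 genes. No motif overlapped another. None of the other motifs had a match in the upstream 250 bases of any of the 9 members. Of 32851 RefSeq upstream stretches of the same length, 32.7% held an SP1 box, 12.6% a TEAD site, 6.75% an AP-1 site, 12.4% a TATA box and 0.0152% the DR4 element. The stretches held 5 CpG dinucleotides for Axl, 10 for Gas6 and 7 for Mertk, against a median of 6 (quartiles 2 and 16). These matches describe letters, not binding.

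Among the bridging proteins, Gas6, the vitamin K-dependent ligand of all 3 TAM receptors, had the largest fitted difference. Its levels were 110.1 CPM in AX 6, 30.4 in AX 7, 31.6 in AX 8, 24.5 in AX 9 and 19.3 in AX 10. In NC they were 40.7, 12.7, 27.8, 14.8 and 15.6 CPM in NC 1 to NC 5. AX 6 lay above all other libraries, and the remaining AX values fell between the lowest and the highest NC value. The mean was 43.2 ± 37.7 CPM in AX and 22.3 ± 11.9 CPM in NC (SD, n = 5 each). The log2 fold change of 1.06 ± 0.54 (SE) is a fold of 2.09, and its 95% interval, from 0.923 to 4.74, includes no difference. Gas6 kept a higher fitted value in AX under every alternative listed in the closing section, from 0.30 without AX 6 to 1.32 without NC 1. Its unadjusted p in edgeR's quasi-likelihood test was 0.0431 without NC 1, 0.0471 without AX 9 and 0.0421 without AX 10. In DESeq2's Wald test it was 0.0498. The lowest adjusted p of Gas6 in any setting was 0.999 (Benjamini-Hochberg). Gas6 also lies among the genes that were high in the libraries rich in mesothelial and stromal marker RNA, and their part was not tested. Gas6 (ENSMUSG00000031451) lies on chromosome 8 from 13465374 to 13494535, on the minus strand, and it overlaps Tmem255b on the other strand, which had no count in any library.

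Pros1, which encodes protein S, a plasma anticoagulant and ligand of Tyro3 and Mer, varied least. The NC libraries lay between 16.7 and 18.6 CPM. The AX libraries were at 11.2 CPM in AX 6, 19.96 in AX 7, 20.2 in AX 8, 25.3 in AX 9 and 19.9 in AX 10. Thus 4 of 5 AX libraries lay above all 5 NC libraries and AX 6 lay below all of them. The mean was 19.3 ± 5.11 against 17.2 ± 0.795 CPM (SD, n = 5 each), with a log2 fold change of 0.21 ± 0.20 (SE) and a 95% interval of the fold from 0.853 to 1.58. Without AX 6 it was 0.34, with an unadjusted p of 0.0544 and an adjusted p of 1.0 in edgeR. Pros1 (ENSMUSG00000022912) is on chromosome 16 from 62854307 to 62929346.

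Mfge8, the bridge to the alpha v integrins, was expressed at a low level. AX 6 had 9.49 CPM, NC 1 had 6.95, and the level lay between 2.03 and 4.08 CPM in the other libraries, on 26 to 120 counts per library. The mean was 4.2 ± 3.0 CPM in AX and 4.17 ± 1.62 CPM in NC (SD, n = 5 each). Its log2 fold change of 0.13 ± 0.45 (SE) was -0.47 without AX 6 and -0.091 with limma-voom, so no direction can be given. The FPKM ratio of Gas6 to Pros1, the alternative TAM ligands, was 17.4 in AX 6 and 3.87 in NC 1 and lay between 1.33 and 2.92 in the other 8 libraries. Mfge8 (ENSMUSG00000030605) is on chromosome 7 from 79133768 to 79149060.

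The integrin subunits of the MFG-E8 receptor did not share a pattern. Itgav, the alpha v chain that pairs with several beta chains, was at 24.8 CPM in AX 6, 7.75 in AX 7, 2.26 in AX 8, 5.04 in AX 9 and 1.57 in AX 10. In NC it was at 16.3, 4.78, 4.82, 1.76 and 1.73 CPM in NC 1 to NC 5. Its highest libraries were thus those of Axl, AX 6 and NC 1. The mean was 8.27 ± 9.53 against 5.89 ± 6.04 CPM (SD, n = 5 each), and the log2 fold change of 0.65 ± 0.81 (SE) was -0.45 without AX 6. That log2 fold change was 0.30 without AX 6 and NC 1 together. Itgb5, the beta 5 chain, was lowest in AX 6 (6.41 CPM) and highest in NC 2 (26.7 CPM). The other AX libraries lay between 7.67 and 18.6 CPM and the other NC libraries between 8.46 and 12.2 CPM. Its mean was 12.8 ± 5.53 against 13.4 ± 7.53 CPM and its log2 fold change -0.01 ± 0.36 (SE), which was 0.32 without NC 2, 0.14 without AX 6 and 0.10 without AX 8. Itgav (ENSMUSG00000027087) lies on chromosome 2 from 83724397 to 83806916 and Itgb5 (ENSMUSG00000022817) on chromosome 16 from 33829665 to 33949153.

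Lrp1, the endocytic receptor, had the highest counts of the 9 members, from 2009 to 5912 per library. Its levels were 158.9, 295, 246.9, 438.2 and 356.2 CPM in AX 6 to AX 10, and 289.5, 380.5, 327.1, 229.1 and 214.9 CPM in NC 1 to NC 5. The groups overlapped over most of their range, with the extremes of both ends in AX. The mean was 299 ± 106 against 288.2 ± 68.8 CPM (SD, n = 5 each). The log2 fold change was 0.09 ± 0.24 (SE), the 95% interval of the fold ran from 0.740 to 1.53, and the value was -0.022 without AX 9. Lrp1 (ENSMUSG00000040249) is on chromosome 10 from 127538161 to 127621148. An antisense gene within it, Gm16217, had at most 7 counts in a library.

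**Figure D3:**
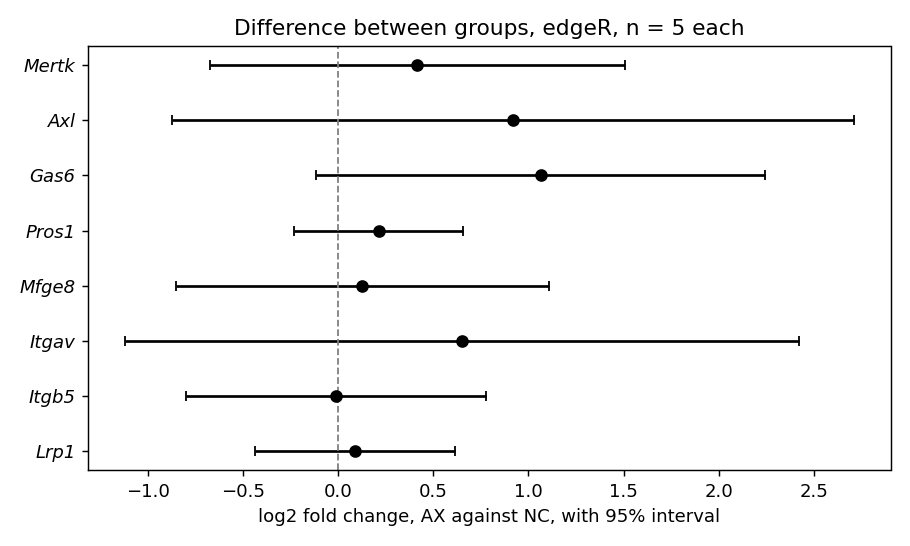
Points give the log2 fold change of AX against NC for the 8 tested members and bars its 95% interval from edgeR (n = 5 each). Every interval includes 0; those of Lrp1 and Pros1 are the narrowest and that of Axl is the widest.

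Pairs of members that bind or act together were compared across the libraries. Of 9 pairs set out, 7 had both genes tested, and p-values were adjusted over these 7. Axl and Gas6 varied together, with r = 0.911 (permutation p = 0.00033, adjusted p = 0.00231) and Spearman's rho = 0.855 (permutation p = 0.00281, adjusted p = 0.0197, n = 10). Without AX 6 and NC 2, the libraries farthest from the median of Gas6, r was 0.884. Both genes were highest in AX 6 and next highest in NC 1, the libraries with the most mesothelial and stromal marker RNA. The part of that RNA in this and the other relations was not tested. Each gene also had closer matches outside the pair, the highest of 10382 genes: Maged2 for Axl (r = 0.997) and Zfp462 for Gas6 (r = 0.984). Mertk and Axl varied in opposite directions, with r = -0.796 (permutation p = 0.00504, adjusted p = 0.0176) and rho = -0.709 (permutation p = 0.0265, adjusted p = 0.0464). Without AX 6 and AX 10, the libraries farthest from the median of Mertk, that r was -0.476. Leaving out AX 10 alone kept it at -0.794 and AX 6 alone brought it to -0.571, so the relation weakened more without AX 6 than without AX 10.

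Pros1 and Mertk varied together, with r = 0.755 (permutation p = 0.0156, adjusted p = 0.0218) and rho = 0.721 (permutation p = 0.0235, adjusted p = 0.0464), and r = 0.445 without AX 6 and AX 8. Leaving out AX 8 alone kept it at 0.746, and AX 6 alone brought it to 0.502. Mfge8 and Itgav gave r = 0.767 (permutation p = 0.0103, adjusted p = 0.0218) but rho = 0.442 (permutation p = 0.204, adjusted p = 0.239). Without AX 6 and NC 1 the relation no longer held (r = 0.00020). Mfge8 and Itgb5, ligand and receptor chain, gave r = -0.738 (permutation p = 0.0126, adjusted p = 0.0218) and rho = -0.770 (permutation p = 0.013, adjusted p = 0.0456), with r = -0.550 without the same libraries. The pairs Gas6 and Mertk (r = -0.622, permutation p = 0.0706, adjusted p = 0.0824; rho = -0.321, permutation p = 0.369, adjusted p = 0.369) and Itgav and Itgb5 (r = -0.523, permutation p = 0.121, adjusted p = 0.121; rho = -0.527, permutation p = 0.123, adjusted p = 0.173) did not pass. Their r without the 2 farthest libraries was -0.364 and 0.013. All 5 relations that passed on r no longer passed without AX 6 alone, with r = 0.808 for Gas6 and Axl (adjusted p = 0.0599), 0.502 for Pros1 and Mertk, 0.517 for Mfge8 and Itgav, -0.665 for Mfge8 and Itgb5 and -0.571 for Mertk and Axl (adjusted p = 0.169 to 0.237, exact permutation, n = 9). The labels give no batch within which to repeat these values. With the group means taken out, 4 of the 5 still passed (exact permutation within the groups), and Pros1 and Mertk gave r = 0.790 with an adjusted p of 0.0776.

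**Figure D4:**
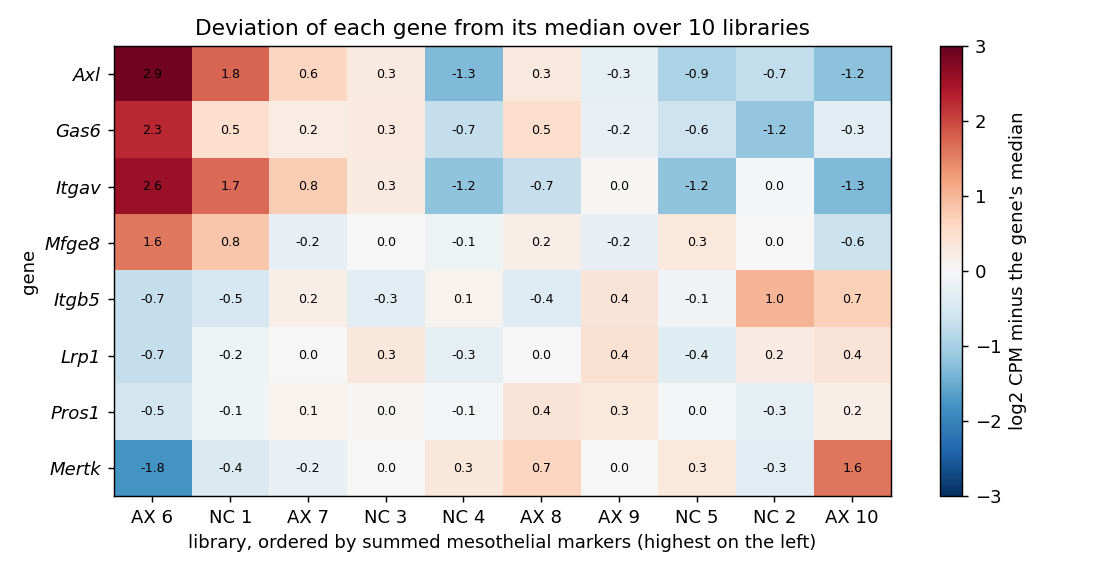
Each cell gives the TMM-scaled log2 CPM of a gene in a library minus that gene's median over the 10 libraries, with libraries ordered by their summed mesothelial markers. In AX 6, Axl, Gas6, Itgav and Mfge8 lie 1.58 to 2.90 above their medians, while Mertk lies 1.80 below its own.

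The genes whose levels most resembled each member were found among 10382 tested genes by Pearson's r of log2 CPM over the 10 libraries, and are given as a description, since the highest of many values was taken. For Axl they were Maged2 (r = 0.997), Ptgis, the prostacyclin synthase gene (0.994), and Gxylt2 (0.992). For Gas6 they were Zfp462 (0.984), Wwc1 (0.980) and Adamtsl1 (0.979), and for Itgav St3gal2 (0.984), the tetraspanin gene Cd151 (0.983) and Abhd2 (0.973). Mertk was most like Mum1 (0.976), Fam122b (0.974) and Pnpla6 (0.972). Pros1 was most like Sfxn3 (0.946), Fnbp1 (0.913) and Lifr, the receptor of leukemia inhibitory factor (0.902). Mfge8 was nearest to Zbed5 (0.978), Anapc7 (0.972) and Naf1 (0.970), Itgb5 to Gapt (0.956), Klhl36 (0.950) and Rcsd1 (0.949), and Lrp1 to Ppp4r1l-ps (0.968), Dennd1b (0.929) and Fastkd1 (0.927). None of these 24 genes was a member or belonged to the marker lists. The points share their libraries, their depth and the cell mixture of each lavage.

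Other genes of apoptotic cell uptake did not pass the test either. Of 59 genes in 6 lists of roles, 55 were tested, 0 passed in edgeR and 0 had an unadjusted p under 0.05; 23 fitted values were higher in AX and 32 were lower, and their median was -0.02 (log2). Among other receptors for dying cells, 4 of 10 tested were higher and 6 lower (median 0.00). Cd36, a scavenger receptor, stood at 9.06 ± 3.87 against 11.8 ± 5.93 CPM, and Havcr2, which encodes TIM-3, at 26.4 ± 5.33 against 30.9 ± 10.4 CPM (SD, n = 5 each). Timd4, the phosphatidylserine receptor TIM-4 of resident peritoneal macrophages, was low, with 2.93 to 4.37 CPM in AX libraries and 2.03 to 6.40 in NC libraries. Of the other bridges and their modifiers, 6 of 10 were higher and 4 lower (median 0.15). Thrombospondin 1 (Thbs1), a bridge to CD36 and alpha v integrins, was very abundant, with 6989 to 23888 CPM in AX libraries and 10248 to 38690 in NC libraries. Vkorc1, which recycles the vitamin K needed to make active Gas6 and protein S, stood at 4.76 ± 2.02 against 3.44 ± 1.23 CPM, a log2 fold change of 0.58 ± 0.38 (SE) that was 0.26 without AX 6, the library with the most Vkorc1 (8.15 CPM). Calr, the calreticulin gene, stood at 471 ± 119 against 574 ± 218 CPM. Thbs1 and Timd4 were chosen after their values were seen.

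Signals of the dying cell and brakes on uptake were higher in AX for 2 of 8 tested genes and lower for 6 (median -0.04). Anxa1, a pro-resolving phospholipid-binding protein, stood at 368 ± 302 against 272 ± 121 CPM, and AX 6 alone held 898.3 CPM; without AX 6 its log2 fold change turned from 0.53 to -0.19. P2ry2, a sensor of ATP released by dying cells, stood at 57.9 ± 20.2 against 70.4 ± 18.0 CPM. Of the engulfment machinery 7 of 12 genes were higher and 5 lower (median 0.04). Abca7, a lipid transporter, stood at 104 ± 50.7 against 86.3 ± 25.4 CPM, and Vav1, a guanine nucleotide exchange factor for Rac, at 279 ± 90.3 against 312 ± 36.0 CPM. The log2 fold change of Vav1, -0.13, was 0.045 without AX 6.

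Genes of corpse digestion and lipid export were higher for 4 of 9 tested and lower for 5 (median -0.02). Abcg1, which exports cholesterol and is a known target of liver X receptors, had the smallest p of all 55 pathway genes. It stood at 7.28, 11.9, 31.05, 22.01 and 28.4 CPM in AX 6 to AX 10, and at 7.92, 14.9, 8.04, 15.4 and 13.4 CPM in NC 1 to NC 5. Hence 3 of 5 AX libraries lay above every NC library and AX 6 lay below them all. The log2 fold change was 0.83 ± 0.41 (SE), with an unadjusted p of 0.0684 and an adjusted p of 1.0 in edgeR's quasi-likelihood test. It was 0.55 without AX 8 and 1.03 without AX 6. The unadjusted p in the same test was 0.0149 without AX 6, 0.0404 without AX 7 and 0.0300 without AX 6 and NC 1 together. It was 0.207 without AX 8, and the lowest adjusted p in any setting was 0.999. Rab7, a small GTPase of phagosome maturation, stood at 619 ± 275 against 794 ± 224 CPM.

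The nuclear receptors that respond to ingested lipids had lower fitted values in AX for all 6 tested genes (median -0.25, log2), and none passed. Pparg had 9.73, 4.30, 1.99, 2.89 and 0.939 CPM in AX 6 to AX 10 and 22.6, 3.11, 3.13, 12.4 and 4.25 CPM in NC 1 to NC 5, so the groups overlapped. Its log2 fold change was -1.07 ± 0.71 (SE), with an unadjusted p of 0.159 and an adjusted p of 1.0 in edgeR's quasi-likelihood test. It was -0.50 without NC 1 and -1.79 without AX 6, the latter with an unadjusted p of 0.0219 and an adjusted p of 1.0 in edgeR. Nr1h2, which encodes liver X receptor beta, stood at 21.4 ± 5.23 against 26.5 ± 8.6 CPM. The summed level of the 6 genes ran from 144.4 to 189.2 CPM in AX and from 191.4 to 223.9 CPM in NC, with no overlap, which held for this list and none of the other 18 lists. Scaled by TMM in place of library size the ranges overlapped, at 138.4 to 200.1 and 169 to 228.2, so the groups separated under only 1 of these scalings. Pparg reached at most 22.6 CPM and Nr1h2 at most 40.1 CPM in a library, and the groups overlapped in both. Most of the summed level therefore came from genes of the list whose values are not given here.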

How the data were processed

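The deposited table holds, per gene and library, a raw count and an FPKM value made by the authors. Per the submitters' processing notes, reads were aligned with HISAT2 2.0.4 to mm10. Not given in the sources used here are the counter, annotation and strand setting. The authors' FPKM values equal the count per gene length and column total (largest relative gap 4.55e-05 over 10527 genes). Groups come from sample titles. The labels do not say whether libraries came from separate animals; p-values then measure only their spread, which may be technical.

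The fit of the counts was made in R 4.3.3 with edgeR 4.0.16 (filterByExpr, TMM, quasi-likelihood F test, two-sided, Benjamini-Hochberg over 12264 genes, threshold 0.05). Levels are CPM of the column total; relations use TMM-scaled log2 CPM with a prior count of 2 and 100000 permutations (Python 3.11.15, scipy 1.17.1). Alternatives were DESeq2 1.42.0, limma-voom (limma 3.58.1), other scalings and filters, limma on log2(FPKM + 1) and leaving out libraries. Members and lists were chosen with earlier results of these data known. Eligible to be named were all members, per pathway list the 2 genes of smallest p, per marker list the 2 of highest mean CPM, and for each member the 3 most similar genes with a mean log2 CPM of at least 1, leaving out predicted genes and Rik clones. Rubcn was matched by its older name 1700021K19Rik from RefSeq. Marker lists not described in the report overlapped between AX and NC in summed CPM: monocytes (AX 3112 to 6298, NC 4149 to 8357), dendritic cells (29.7 to 81.5, 33.3 to 83.1), B cells (29.8 to 81.2, 21.6 to 74.2), T cells (8.46 to 20.5, 7.34 to 24.03) and platelets (139 to 367, 142 to 252). On data simulated for this comparison with 12134 genes tested, edgeR called 74 of the 100 genes given a 4-fold change, 6 of the 100 given a 2-fold change and 3 without one. The simulation gave all genes a common dispersion and no outlying library. Its recovery therefore does not hold for each member, since their standard errors ran from 0.20 (Pros1) to 0.81 (Axl). Gene coordinates are those of the deposited table (mm10). Upstream sequences are from RefSeq (GRCm38.p6); all 9 members matched. The 95% intervals of fold changes come from the edgeR fit and include the spread between libraries, whereas the limit given for a count of 0 covers counting error only, since no molecular identifiers are described.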

Additional observations from a re-analysis of the deposited data

Results flagged for a closer look

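In each group of 5 libraries, a library was singled out when its gap to the nearest other library exceeded 0.71 of the group's range. For normally distributed values, chance gives this in about 1 group in 20. It occurred in 16 of 62 groups examined, which share libraries. The values were CPM without a log, and whether they are normally distributed was not tested, so the excess over chance cannot be measured. AX 6 stood out as high within AX for Axl (317.8 CPM), Gas6 (110.1), Mfge8 (9.49), Itgav (24.8) and Anxa1 (898.3), for the summed mesothelial markers (2395) and for the summed stromal markers (2985 CPM). NC 1 stood out as high within NC for Axl (177.7 CPM), Mfge8 (6.95), Itgav (16.3), Pros1 (18.6, where the other 4 lay between 16.7 and 16.9), and the same marker sums (1249 and 1681 CPM), and as low for Vav1 (249.4 CPM). NC 2 stood out as high for Itgb5 (26.7 CPM) and AX 9 for the summed platelet markers (367.2 CPM). The cause of these values was not tested.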

How the results depend on the processing

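Across the alternatives, 0 members and 0 of the other uptake genes passed in any setting. Over all genes 0 passed in every setting except without NC 3, where 1 did, so leaving out single libraries gave 0 to 1; genes at an unadjusted p under 0.05 numbered 79 to 433. No paired analysis was possible because the groups share no replicate number. Gas6 and Pros1 kept their direction in all settings run. Leaving out each library in turn, the log2 fold change ranged from -0.13 to 0.68 for Mertk, -0.27 to 1.76 for Axl, -0.47 to 0.33 for Mfge8, -0.45 to 1.39 for Itgav, -0.21 to 0.32 for Itgb5, -0.022 to 0.23 for Lrp1, -0.19 to 0.73 for Anxa1 and -0.25 to 0.045 for Vav1. Mfge8 was also lower in AX with limma-voom (-0.091) and without AX 6 and NC 1 together (-0.27), and Itgb5 higher without a filter (0.01) and without that pair (0.016). Mertk and Itgb5 changed places when levels were given as TPM, which used the same gene lengths.

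The relations ranged, on leaving out each library, from -0.773 to -0.073 for Gas6 and Mertk, which passed without NC 2, 0.808 to 0.940 for Gas6 and Axl, 0.502 to 0.830 for Pros1 and Mertk, 0.517 to 0.851 for Mfge8 and Itgav, -0.873 to -0.665 for Mfge8 and Itgb5, -0.638 to -0.306 for Itgav and Itgb5 and -0.856 to -0.571 for Mertk and Axl. Besides AX 6, leaving out AX 10 ended the calls of Mfge8 with Itgav (0.721) and with Itgb5 (-0.676), and leaving out NC 1 that with Itgav (0.724). Scaled by library size only, Pros1 and Mertk (0.699) and Mfge8 and Itgb5 (-0.541) no longer passed. With the group means taken out, chosen after seeing the data, Pros1 and Mertk (0.790) no longer passed. Without AX 6 and NC 1 together, chosen after seeing the data for the relations, r was 0.115 for Gas6 and Mertk, 0.794 for Gas6 and Axl, 0.428 for Pros1 and Mertk, 0.00020 for Mfge8 and Itgav, -0.550 for Mfge8 and Itgb5, 0.013 for Itgav and Itgb5 and -0.452 for Mertk and Axl, and none passed (exact permutation, n = 8). The causes were not tested. Depth limits Tyro3, and at a median standard error of 0.317 (log2) a 2-fold change of a typical gene could be missed. The standard error was larger for Axl (0.81), Itgav (0.81), Gas6 (0.54), Mertk (0.49), Mfge8 (0.45) and Itgb5 (0.36), where larger changes could be missed. It was smaller for Lrp1 (0.24) and Pros1 (0.20).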
